A study of Homo sapiens with 18 samples.

Results

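A total of 43 proteasome genes were followed in VCaP cells, a human prostate cancer line that carries the TMPRSS2:ERG fusion and overexpresses the transcription factor ERG. They were all genes in the count table whose symbol was PSM, a letter from A to G and a number, and which had at least 10 counts in each of the 18 samples. Of the 22034 genes in the table, 47 had such a symbol, and 11807 reached 10 counts in every sample. The genes left out by the minimum were PSMA2 (0 to 4 counts per sample), PSMB9 (4 to 50), PSMB10 (6 to 63), and PSMB11 (0 to 1), and the members nearest to it were PSMB8 (31 to 117 counts) and PSMG4 (36 to 173). Of the exon bases of PSMA2, 34.6% lie in exons of other genes, so that its reads could have been lost in counting, and its low counts are not read as absence of expression. By their known places in the particle, the members comprised 6 alpha and 4 structural beta subunits of the 20S core, 3 constitutive and 1 interferon-inducible catalytic subunit, 6 ATPases and 3 other subunits of the 19S base, 8 lid subunits, 3 chaperones of 19S assembly, 5 activators or inhibitors, and 4 chaperones of 20S assembly.

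RNA-seq was performed on rRNA-depleted RNA in 2 experiments. VCaP cells stably carrying a doxycycline-inducible hairpin against ERG received DMSO (shERG-DMSO) or doxycycline at 1 µg/mL (shERG-Dox). Parental VCaP cells received DMSO or PBITE-1, a ligand of the PNT domain of ERG, at 50 µM for 4, 8, or 12 h. There were 6 groups of 3 samples, stated to be biological replicates for PBITE-1, and the 3 PBITE-1 times shared their DMSO samples, whose time is not given in the labels. The duration of Dox is likewise not given there, Dox in cells without the hairpin was not analysed here, and the hairpin cells are 1 stable line, so effects of Dox itself and of ERG loss cannot be told apart.

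The 26S proteasome degrades proteins marked with ubiquitin. Its barrel-shaped 20S core holds the proteolytic sites inside beta rings closed by alpha rings, and the 19S regulatory particle recognises, deubiquitinates, unfolds, and threads the substrate into the core. When the proteasome is impaired, the transcription factor NFE2L1 is released from the endoplasmic reticulum and raises the transcription of most subunit genes together, and in cells exposed to interferon the catalytic subunits PSMB8, PSMB9, and PSMB10 replace PSMB5, PSMB6, and PSMB7.

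Sample totals lay between 11308600 and 17483423 counts. ERG was measured at 461, 449, and 433 CPM (counts scaled to a common library size by TMM within each experiment) in shERG-DMSO and at 166, 167, and 159 in shERG-Dox, and at 280.0, 289.5, and 298 in DMSO, 178, 184, and 178 after 4 h, 96.6, 94.0, and 90.7 after 8 h, and 102, 88.5, and 101 after 12 h. The treated samples lay below their vehicle samples without overlap (log2 fold change -1.44 ± 0.035 SE with Dox and -1.58 ± 0.047 after 12 h, limma adjusted p = 3.3e-22 and 7.4e-28). All 10 prostate luminal markers checked had at least 10 counts in every sample, and their summed level was 10486.0 to 10718 CPM in shERG-DMSO, 6500 to 6749 in shERG-Dox, 7597 to 7740 in DMSO, and 7172 to 7256, 5216 to 5348, and 3320 to 3907 at 4, 8, and 12 h. Markers of basal, fibroblast, endothelial, and leukocyte cells summed to at most 7.32 CPM per list and sample. COL1A2, DCN, CDH5, PTPRC, and CD3E were each at 0 in all samples of several groups. The luminal sum was thus lower in the same treated groups as the proteasome genes, and its part in the results was not tested.

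The 250 bases before the transcription start were read from RefSeq (GRCh38.p14) for 37 of the 43 members, and PSMA7, PSMB1, PSMB6, PSMB7, PSMD4, and PSMG3 were not matched. Both strands were searched for the NFE2L1 and NFE2L2 element as TGACNNNGC or TGAGNNNGC, for CCAAT, and for the ETS site CCGGAAG, the letters bound by the family of ERG. The first form was found in 12 members (32.4%, against 13.2% of 27305 genes with a window and 14.7% of the 15842 that code for protein), the second in 10 (27%, against 17.7% and 19.6%), and either in 18 (48.6%, against 28.1% and 31%). CCAAT was found in 16 members (43.2%, against 37% and 40.2%) and CCGGAAG in 10 (27%, against 10.2% and 14%). Such matches are a description of letters and not of binding, and genes with several windows were counted once.

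The windows of the 4 members that fell more than 2-fold in any comparison with vehicle (PSMG1, PSMG4, PSMB2, and PSMC3), of PSMD9, which rose under both treatments, and of PSMB8, which rose with Dox and fell with PBITE-1, are shown 5′ to 3′ on the strand of the gene, with matches in capitals. PSMB8 has a pair of windows without a match, of which the upstream one is shown.
PSMG1 (chr21:39183452-39183701, minus strand): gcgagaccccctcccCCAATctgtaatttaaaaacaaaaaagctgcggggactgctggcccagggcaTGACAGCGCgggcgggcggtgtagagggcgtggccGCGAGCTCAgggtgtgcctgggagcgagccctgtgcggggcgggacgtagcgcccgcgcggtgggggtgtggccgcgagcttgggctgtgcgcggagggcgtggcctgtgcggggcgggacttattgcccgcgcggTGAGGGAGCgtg
PSMG4 (chr6:3258697-3258946, plus strand): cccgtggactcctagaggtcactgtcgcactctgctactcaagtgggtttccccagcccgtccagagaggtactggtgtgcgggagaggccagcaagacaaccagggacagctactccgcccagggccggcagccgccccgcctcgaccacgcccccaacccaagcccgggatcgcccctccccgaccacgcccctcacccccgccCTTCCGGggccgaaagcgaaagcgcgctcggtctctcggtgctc
PSMB2 (chr1:35641527-35641776, minus strand): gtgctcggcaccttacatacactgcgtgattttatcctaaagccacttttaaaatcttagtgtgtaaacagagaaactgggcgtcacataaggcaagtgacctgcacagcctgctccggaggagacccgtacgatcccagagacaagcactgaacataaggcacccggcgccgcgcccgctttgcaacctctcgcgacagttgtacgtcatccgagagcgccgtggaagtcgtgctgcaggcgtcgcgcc
PSMC3 (chr11:47426440-47426689, minus strand): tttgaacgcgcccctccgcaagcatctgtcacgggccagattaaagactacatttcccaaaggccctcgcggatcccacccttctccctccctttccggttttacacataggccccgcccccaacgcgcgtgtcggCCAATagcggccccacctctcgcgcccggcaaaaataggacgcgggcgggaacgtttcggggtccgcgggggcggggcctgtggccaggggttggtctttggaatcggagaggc
PSMD9 (chr12:121888540-121888789, plus strand): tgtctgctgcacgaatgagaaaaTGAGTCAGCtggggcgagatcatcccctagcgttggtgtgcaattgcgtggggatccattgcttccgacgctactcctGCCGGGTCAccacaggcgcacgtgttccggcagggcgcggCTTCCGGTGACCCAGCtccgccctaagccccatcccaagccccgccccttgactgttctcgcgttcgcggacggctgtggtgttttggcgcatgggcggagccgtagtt
PSMB8 (chr6:32844680-32844929, minus strand): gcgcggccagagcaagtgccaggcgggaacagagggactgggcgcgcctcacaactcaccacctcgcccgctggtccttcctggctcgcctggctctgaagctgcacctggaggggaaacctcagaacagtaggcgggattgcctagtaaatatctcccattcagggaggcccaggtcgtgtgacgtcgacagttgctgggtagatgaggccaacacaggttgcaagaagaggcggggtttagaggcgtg
The PSMG1 window held 1 TGACNNNGC at 183 to 175 bases before the start, TGAGNNNGC at 148 to 140 (opposite strand) and at 12 to 4 bases, and CCAAT at 235 to 231 bases. PSMD9 held TGACNNNGC at 149 to 141 (opposite strand) and 102 to 94 bases and TGAGNNNGC at 227 to 219 bases, and its ETS letters at 109 to 103 bases (opposite strand) run directly into the second element. PSMG4 held only ETS letters, PSMC3 only CCAAT, and PSMB2 and PSMB8 none of the motifs searched. None of the motifs searched was found in all 6 of these windows.

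Under DMSO, levels per kb of the principal transcript differed widely between members. PSMA7, an alpha ring subunit, was at 179 ± 15 CPM per kb (SD, n = 3) and the structural subunit PSMB4 at 145 ± 8.2, both near the top of the order. The immunoproteasome subunit PSMB8 was lowest at 4.21 CPM per kb, and the chaperones of 19S and 20S assembly had medians of 11.6 and 9.63 CPM per kb, against 76.8 for the alpha subunits. Of the 42 pairs of neighbours in this order, 25 had overlapping ranges of mean ± 1 SD and were not separated. PSME3, the nuclear activator PA28 gamma, ranked 1 at 214 CPM per kb of principal transcript and 7 at 41.5 CPM per kb of all its exons, and the order of the other members also depended on the length used.

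With Dox, 38 of the 43 proteasome genes fell and 4 rose at an adjusted p under 0.05 in limma, and PSMD4 did not pass the test. Among all 14164 genes tested, 35.3% fell and 35.1% rose. The median log2 fold change was -0.37 over the members and 0.02 over all genes, and the 38 lower and 4 higher members also had no overlap between the groups, as did 36.4% and 36.2% of all genes. The decreases were small, with 1 member (PSMG1) past 2-fold against 7.19% of all genes, and none upwards, against 12%. In each shERG-Dox sample the median member lay at a log2 difference between -0.40 and -0.37 from the shERG-DMSO mean.

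These values depended on the scaling. TMM, which assumes that most genes keep their level, placed the median of all genes at 0.02 with Dox, whereas scaling by library size alone placed it at 0.28 and upper-quartile scaling at 0.18. Under library size alone 21 members fell and 6 rose, with 22.5% of all genes lower and 51.2% higher, and under upper quartiles 28 fell and 4 rose, with 27% and 45%. The members' median relative to that of all genes was -0.39 under each of these scalings. Since a change of scaling shifts all genes by nearly the same amount, this sameness was given in advance and is not a check. Members took 0.457 ± 0.0015% of all counts in shERG-DMSO and 0.423 ± 0.0019% in shERG-Dox (SD, n = 3). In bulk samples fewer cells of a kind and less RNA per cell cannot be told apart.

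**Figure D1:**
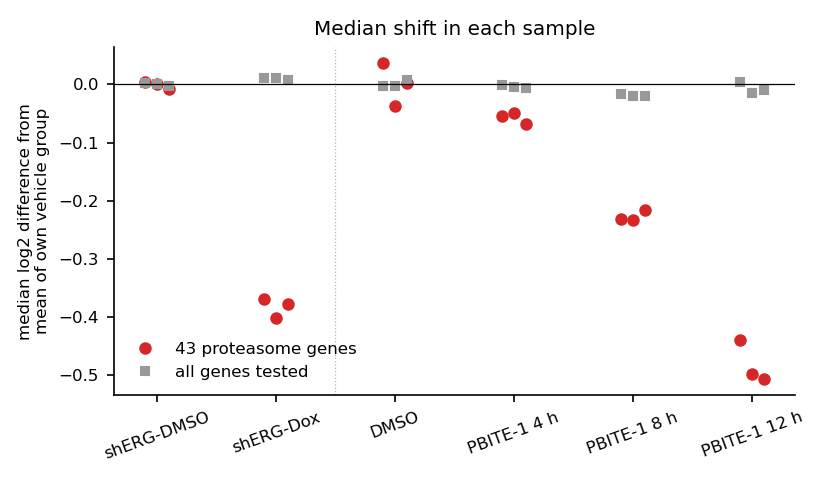
Median log2 difference of the 43 proteasome genes (circles) and of the 14164 genes tested (squares) from the mean of the own vehicle group, for each sample of the 6 groups (x axis). The members sit between -0.40 and -0.37 in shERG-Dox and between -0.51 and -0.44 after 12 h of PBITE-1, while the median of all genes lies between -0.02 and 0.01 in every sample under TMM scaling.

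The chaperones of 20S assembly, PSMG1 to PSMG4, which pair the alpha subunits into rings, all fell with Dox under TMM. PSMG1 measured 18.8, 19.9, and 19.4 CPM in shERG-DMSO and 9.59, 8.24, and 10.5 in shERG-Dox, and the groups were well apart. Its log2 fold change was -1.04 ± 0.11 (SE, adjusted p = 7.7e-09), the most negative of all members. PSMG4 was at 11.3, 9.20, and 13.0 CPM with vehicle and 5.89, 5.75, and 5.89 with Dox, again without overlap, a change of -0.90 ± 0.16 (SE, adjusted p = 1.3e-05). PSMG2 and PSMG3 changed by -0.55 and -0.37, and the call of PSMG3 was lost under library size alone and upper quartiles.

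All 6 alpha subunits fell, led by PSMA3 (-0.75 ± 0.049) and PSMA6 (-0.72 ± 0.055), whereas PSMA4 changed by -0.11, a value that turned positive under library size alone and upper quartiles. PSMA1, with 24.7% of its exon bases in exons of another gene on the same strand, changed by -0.39 ± 0.041. For PSMA6 this share was 14.1%. PSMA3 lay between 104 and 109.9 CPM in shERG-DMSO and between 62.3 and 63.7 in shERG-Dox. The 4 structural and 3 constitutive catalytic beta subunits fell as well, and among the catalytic ones PSMB5 (chymotrypsin-like site) changed by -0.35 ± 0.058, PSMB6 (caspase-like site) by -0.40 ± 0.079, and PSMB7 (trypsin-like site) by -0.51 ± 0.044. Of the structural subunits, PSMB1 changed by -0.38 ± 0.046 and PSMB3 by -0.54 ± 0.080. The direction of PSMB4 turned under library size alone, and the calls of PSMB5 and PSMB6 were lost there.

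In the 19S particle, the 6 ATPases PSMC1 to PSMC6, which unfold the substrate, fell by TMM, with PSMC3 at -0.62 ± 0.056 and PSMC4 and PSMC5 at -0.44 and -0.45. Under library size alone the signs of PSMC2 and PSMC6 turned and the call of PSMC1 was lost. The scaffold subunit PSMD1 changed by -0.43 ± 0.037. All 8 lid subunits fell by TMM too, of which PSMD8 and PSMD13 turned in sign and PSMD3, PSMD6, and PSMD7 lost their calls (-0.04, -0.10, and -0.05) under library size alone. PSMD14, the deubiquitinase that removes ubiquitin chains before degradation, was at 117, 129, and 122 CPM in shERG-DMSO and 66.6, 65.7, and 65.0 in shERG-Dox. Its groups were far apart and its log2 fold change was -0.90 ± 0.050 (SE, adjusted p = 9.0e-15). PSMD4, a ubiquitin receptor of the base, had overlapping groups (96.1, 98.4, and 90.8 against 94.5, 90.6, and 87.2 CPM) and a log2 fold change of -0.07 ± 0.049 (SE, adjusted p = 0.22), which was called higher under library size alone.

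The 4 members that rose with Dox were PSMB8, PSMD5, PSME1, and PSMD9. PSMD5, a chaperone of the 19S base, was at 33.9, 31.3, and 34.7 CPM in shERG-DMSO and 48.3, 52.2, and 47.6 in shERG-Dox, which did not overlap, a change of 0.57 ± 0.068 (SE, adjusted p = 3.5e-08). PSME1, the alpha chain of the interferon-inducible PA28 activator, rose by 0.21 ± 0.060, while its partner PSME2 changed by -0.24 ± 0.067, a call that was lost without shERG-Dox replicate 2 (adjusted p = 0.0504) and a sign that turned under library size alone. PSMD9, another base chaperone, rose by 0.19 ± 0.081 (SE, adjusted p = 0.036), and PSMD10 (gankyrin), the third, changed by -0.19 ± 0.081 (SE, adjusted p = 0.039). The call of PSMD9 was lost without shERG-DMSO replicate 2 or 3 or shERG-Dox replicate 2, with DESeq2, and with no filter on low counts, and that of PSMD10 without any of 5 of the 6 samples, with DESeq2, under other count filters, and under upper quartiles, while its sign turned under library size alone. Of the activators, the 20S-binding PSME3 fell by 0.72 on the log2 scale, and lay between 233 and 239 CPM in shERG-DMSO and between 139.7 and 148 in shERG-Dox.

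**Figure D2:**
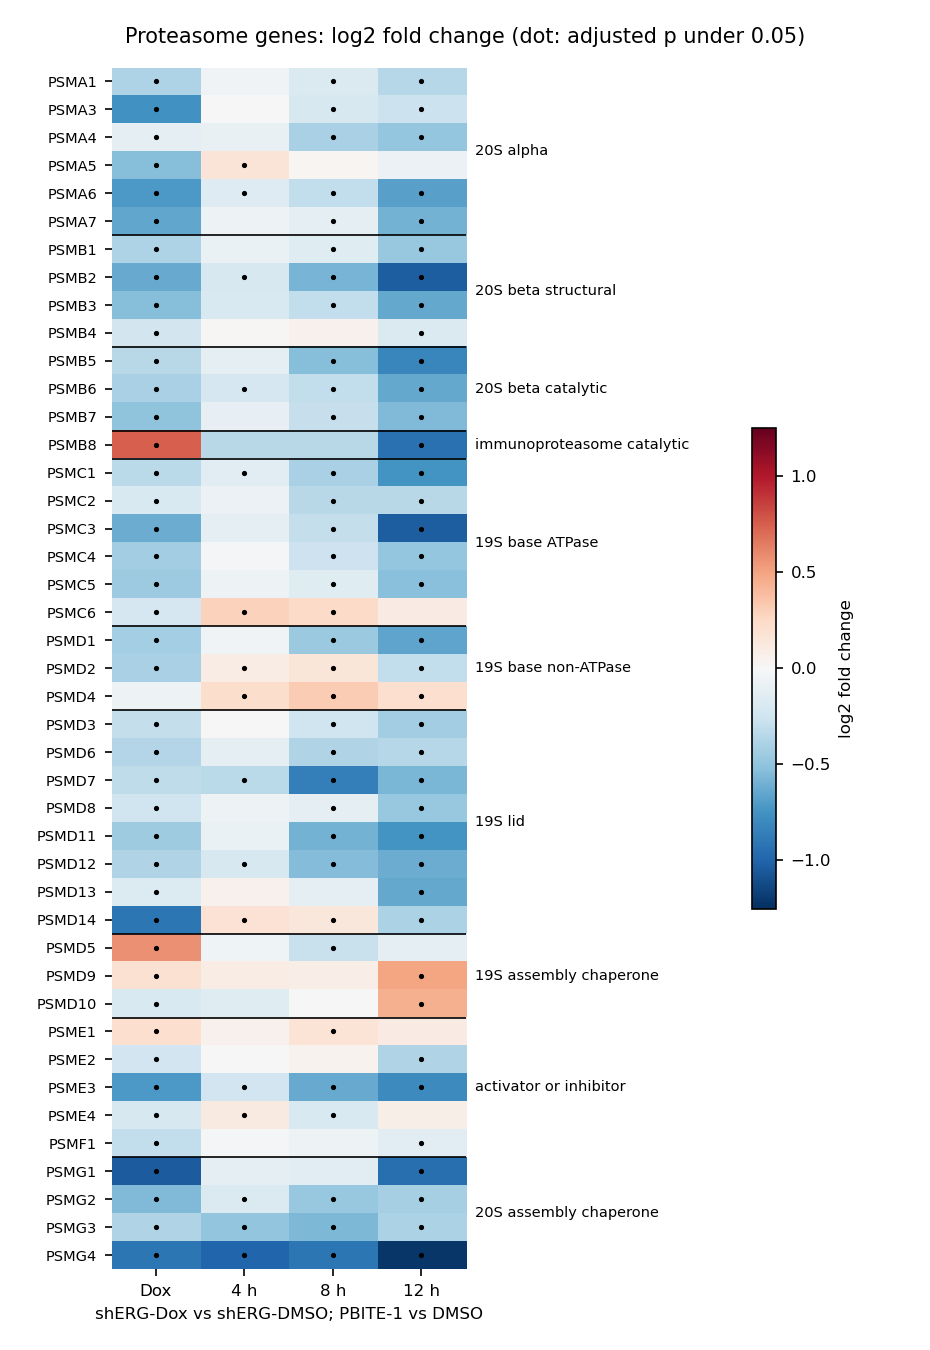
Log2 fold change of each of the 43 members (rows, grouped by place in the particle) with Dox and at 4, 8, and 12 h of PBITE-1 (columns), blue for lower and red for higher than vehicle, with a dot where the adjusted p was under 0.05. The Dox column and the 12 h column are mostly blue, with 38 and 35 members lower, and the 19S assembly chaperones and PSMB8 stand apart from their neighbours under TMM scaling.

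With PBITE-1, the proteasome genes changed little after 4 h and were mostly lower after 12 h. At 4 h, 10 of the 43 members fell and 6 rose (24.7% and 26.4% of all genes tested), with a median log2 fold change of -0.07. By 8 h, 29 fell and 5 rose (37% and 35.9% of all genes), with a median of -0.26. At 12 h, 35 fell and 3 rose (39.4% and 39.4% of all genes), with a median of -0.48 against -0.01 over all genes. The counts after 4 h were near the background and depended on the scaling, with 21 members lower under library size alone and 16 under upper quartiles, and on single samples, since 3 members rose without DMSO replicate 2 or without PBITE-1 4 h replicate 1. Likewise 3 members rose after 8 h without PBITE-1 8 h replicate 1. No member changed past 2-fold after 4 h, when 2.99% of all genes did so downwards and 7.28% upwards, or after 8 h (8.86% and 14.9%). At 12 h the counts were 35 or 36 lower and 3 higher under every scaling tried.

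Comparing the treated samples directly, 35 members were lower and 2 higher after 12 h than after 4 h (35% and 35% of all genes), with a median of -0.39. The step from 4 to 8 h called 22 members lower and 0 higher (26.3% and 26.7% of all genes, by limma, edgeR, and DESeq2 alike, and 0 higher at an unadjusted p under 0.05 in limma), and the step from 8 to 12 h called 26 lower and 4 higher (32.5% and 27.8%). No member passed 2-fold in the first step (2.22% of all genes lower and 4.43% higher), the second (6.59% and 3.48%), or both together (11% and 9.08%). The share of all counts taken by members was 0.458 ± 0.010% in DMSO, 0.428 ± 0.0059% after 4 h, 0.372 ± 0.0037% after 8 h, and 0.329 ± 0.0052% after 12 h (SD, n = 3). These shares did not overlap between the 4 groups.

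The members that fell past 2-fold after 12 h were PSMG4, PSMB2, and PSMC3, against 15.4% of all genes, and no member rose past 2-fold, against 17.1%. The 12 h samples did not overlap with DMSO for 35 members below and 4 above it (39.4% and 39.2% of all genes). PSMB2, a structural subunit of the beta ring, was at 126, 114, and 119.9 CPM in DMSO, 105, 101, and 106 after 4 h, 82.3, 76.3, and 81.1 after 8 h, and 64.1, 54.1, and 58.2 after 12 h. No group overlapped with the one before it, and the change after 12 h was -1.03 ± 0.057 (SE, adjusted p = 2.5e-19). The ATPase subunit PSMC3 was at 71.3, 67.7, and 70.3 CPM in DMSO, 67.7, 65.6, and 59.1 after 4 h, 55.5, 52.9, and 63.3 after 8 h, and 35.7, 31.8, and 35.2 after 12 h. Its samples overlapped between 4 and 8 h and dropped away after 12 h (-1.03 ± 0.070 SE, adjusted p = 1.7e-16). Between 8 and 12 h PSMC3 fell by 0.73 on the log2 scale, and PSMG1 by 0.80.

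Among the 20S assembly chaperones, the courses differed. PSMG4 was at 8.28, 9.64, and 7.14 CPM in DMSO and already at 4.29, 5.32, and 3.10 after 4 h, then at 3.68, 5.37, and 4.48 after 8 h and 4.02, 4.58, and 2.42 after 12 h. The treated groups overlapped with each other but not with DMSO, and the change was -0.99 ± 0.20 (SE, adjusted p = 7.5e-05) after 4 h and -1.21 ± 0.21 (SE, adjusted p = 1.6e-06) after 12 h, at low counts and with 15.0% of its exon bases opposite exons of SLC22A23 and TUBB2B. PSMG1, by contrast, was at 18.1, 15.3, and 17.0 CPM in DMSO, 14.7, 16.0, and 15.7 after 4 h, and 16.5, 14.2, and 14.7 after 8 h, all overlapping, and at 9.08, 8.63, and 8.47 after 12 h (-0.94 ± 0.12 SE, adjusted p = 2.1e-09). PSMG3 fell by 0.50 after 4 h and 0.39 after 12 h, and PSMG2 by 0.18 and 0.42, all on the log2 scale. The call of PSMG2 after 4 h was lost without DMSO replicate 2 or 3 or PBITE-1 4 h replicate 1 or 3.

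Of the catalytic subunits, PSMB5, the target of most proteasome inhibitors, was at 65.5, 57.6, and 57.5 CPM in DMSO, 58.8, 55.8, and 52.3 after 4 h, 43.8, 41.8, and 38.4 after 8 h, and 37.2, 31.9, and 33.9 after 12 h. The 4 h samples overlapped with DMSO, and the later groups were separate from it and from each other. Its log2 fold change was -0.11 ± 0.065 after 4 h, -0.53 ± 0.068 after 8 h, and -0.81 ± 0.071 (SE, adjusted p = 3.0e-13) after 12 h, and PSMB6 and PSMB7 changed by -0.64 ± 0.096 and -0.55 ± 0.050 after 12 h. The structural subunits PSMB1 and PSMB3 changed by -0.47 ± 0.056 and -0.64 ± 0.087, and the alpha subunit PSMA1 by -0.35 ± 0.046. Of the alpha subunits 5 of 6 fell after 12 h, with PSMA6 lowest (-0.67 ± 0.056) and PSMA5 not called (-0.07 ± 0.064).

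**Figure D3:**
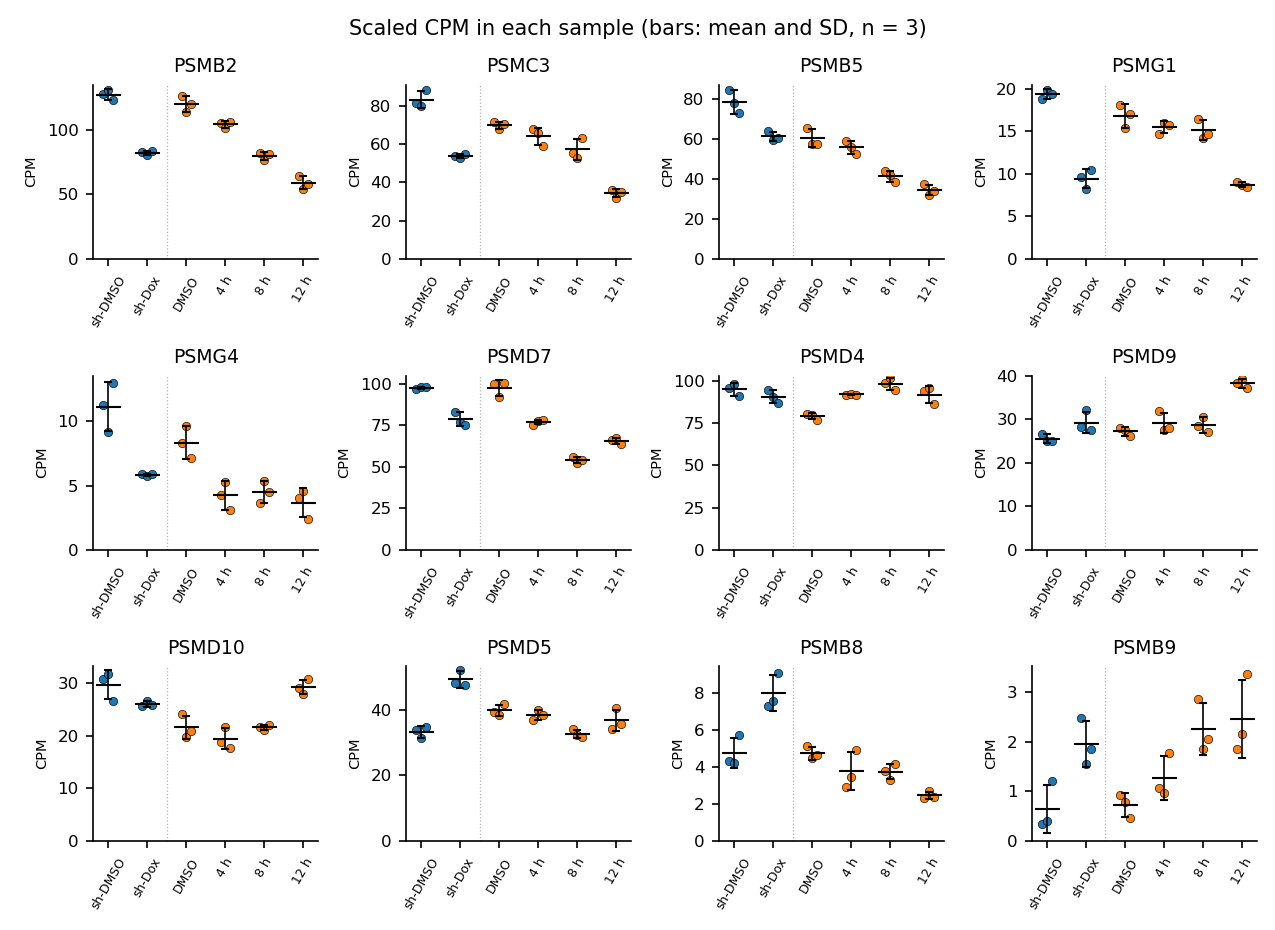
TMM-scaled CPM (y axis, linear from 0) of 11 members and of PSMB9 in each of the 18 samples (points), with mean and SD (bars, n = 3), for the shERG line (blue) and the parental line (orange). PSMB2 is lower at each time of PBITE-1, PSMG1 is called lower after 12 h and not before, PSMG4 is lower already after 4 h, and within the parental line PSMD7 has its lowest values after 8 h and PSMD9 and PSMD10 their highest after 12 h.

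In the lid, all 8 subunits fell after 12 h, among them PSMD3 (-0.43 ± 0.046) and PSMD6 (-0.35 ± 0.058), but PSMD7, the partner of PSMD14 in the deubiquitinating module, had its lowest values earlier. It was at 100.3, 92.3, and 101 CPM in DMSO, 75.5, 77.7, and 78.0 after 4 h, 55.7, 52.1, and 54.3 after 8 h, and 66.1, 67.5, and 63.6 after 12 h. None of these groups overlapped, and PSMD7 rose by 0.28 ± 0.058 (SE, adjusted p = 7.7e-05) from 8 to 12 h, with 30.7% of its exon bases opposite a noncoding transcript. PSMD14 itself was at 107, 104, and 109.6 CPM in DMSO, 122, 125, and 116 after 4 h, 123, 112, and 118 after 8 h, and 79.4, 83.4, and 80.8 after 12 h. It was thus above DMSO at 4 and 8 h (0.18 ± 0.048 and 0.14 ± 0.048, the latter not called without PBITE-1 8 h replicate 1 or under library size alone) and below it after 12 h (-0.40 ± 0.050 SE, adjusted p = 4.3e-09). PSMD11 and PSMD12, which brace the lid against the core, changed by -0.75 ± 0.039 and -0.62 ± 0.055 after 12 h.

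In the base, 5 of the 6 ATPases fell after 12 h, with PSMC4 and PSMC5 at -0.49 and -0.52, and the scaffold subunit PSMD1 fell by 0.66. The sixth, PSMC6, rose after 4 h (0.28 ± 0.058) and 8 h (0.24 ± 0.058) and was at 0.10 ± 0.058 after 12 h, when its samples overlapped with DMSO. PSMC1 fell by 0.75 after 12 h on the log2 scale, but 75.8% of its exon bases lie opposite exons of NRDE2, so that its counts are uncertain if the strand was not used. The scaffold subunit PSMD2 was at 0.09 ± 0.037 after 4 h, 0.15 ± 0.037 after 8 h, and -0.30 ± 0.038 after 12 h, and the 4 h call was lost without any one of 4 samples. The ubiquitin receptor PSMD4 was at 80.5, 80.1, and 77.1 CPM in DMSO, 91.9, 92.2, and 92.0 after 4 h, 98.8, 102, and 94.7 after 8 h, and 94.0, 95.8, and 86.2 after 12 h. Its treated groups lay above DMSO without overlap (0.21 ± 0.051 SE, adjusted p = 2.5e-04 after 12 h).

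The base chaperones PSMD9 and PSMD10, which hold ATPase pairs before the base is complete, rose late. PSMD9 was at 28.1, 27.5, and 26.1 CPM in DMSO, 31.9, 27.5, and 28.0 after 4 h, 28.4, 30.6, and 27.1 after 8 h, and 38.3, 39.4, and 37.3 after 12 h. PSMD10 was at 24.1, 19.8, and 20.8 CPM in DMSO, 18.9, 21.6, and 17.7 after 4 h, 21.6, 21.1, and 22.1 after 8 h, and 29.2, 28.0, and 30.7 after 12 h. For both, the 12 h samples lay above all other parental samples, with changes of 0.50 ± 0.073 (SE, adjusted p = 1.0e-07) and 0.45 ± 0.084 (SE, adjusted p = 8.7e-06). Of the exon bases of PSMD9, 22.6% lie in exons of other genes, most of them on the same strand, and none of those of PSMD10 do. The third base chaperone, PSMD5, was lower after 8 h (-0.28 ± 0.072 SE, adjusted p = 7.3e-04) and at -0.12 ± 0.069 after 12 h.

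Among the activators, PSME3 fell at each time. It was at 217, 213, and 213 CPM in DMSO, 179.9, 178, and 185 after 4 h, 143, 143, and 127 after 8 h, and 125, 119.8, and 124 after 12 h. The groups did not overlap, and the change after 12 h was -0.80 ± 0.045 (SE, adjusted p = 4.1e-19). PSME4 (PA200) was below DMSO after 8 h (-0.19 ± 0.047) and above the 8 h level again after 12 h (0.26 ± 0.047 SE, adjusted p = 1.1e-05 for 12 h against 8 h). PSME1 was at 0.10 ± 0.062 after 12 h, PSME2 at -0.38 ± 0.066, and the inhibitor PSMF1 at -0.14 ± 0.045, of which PSME2 and PSMF1 passed the test.

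The interferon-inducible catalytic subunits were expressed at low levels and did not move as one. PSMB8 was at 4.32, 4.19, and 5.69 CPM in shERG-DMSO and 7.27, 7.54, and 9.07 in shERG-Dox, without overlap (0.75 ± 0.17 SE, adjusted p = 4.1e-04). In the parental line PSMB8 was at 5.12, 4.46, and 4.62 CPM in DMSO, 2.89, 3.47, and 4.88 after 4 h, 3.79, 3.30, and 4.12 after 8 h, and 2.31, 2.68, and 2.35 after 12 h, and it fell after 12 h (-0.93 ± 0.22 SE, adjusted p = 2.1e-04). PSMB8 shares 20.6% of its exon bases with PSMB9 and an antisense RNA on the other strand. PSMB9 and PSMB10 fell below the minimum for members but passed the filter of the test. PSMB9 was at 0.333, 0.406, and 1.20 CPM in shERG-DMSO and 2.47, 1.55, and 1.86 in shERG-Dox, and at 0.920, 0.793, and 0.457 in DMSO and 1.86, 2.16, and 3.36 after 12 h, so that it was higher under both treatments (1.74 ± 0.43 and 1.77 ± 0.37, adjusted p = 8.4e-04 and 5.4e-05). PSMB10 was at 3.58, 4.13, and 4.72 CPM in shERG-DMSO and 2.18, 2.88, and 2.64 in shERG-Dox, without overlap and opposite to PSMB8 and PSMB9. In the parental line it was at 2.96, 3.48, and 1.94 CPM in DMSO and 0.745, 0.915, and 0.403 after 12 h (-1.99 ± 0.40 SE, adjusted p = 2.6e-05). It shares 34.8% of its exon bases with another gene on the same strand, so its counts are uncertain.

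A ratio of 2 genes within a sample does not depend on the scaling, so each inducible subunit was set against the constitutive one that it replaces. The log2 ratio of PSMB8 to PSMB5 was -4.05 ± 0.33 (SD, n = 3) in shERG-DMSO and -2.94 ± 0.20 in shERG-Dox, a difference of 1.10 (exact permutation p = 0.1, two-sided). At 12 h of PBITE-1 it was -3.79 ± 0.22 against -3.66 ± 0.027 in DMSO, a difference of -0.13 (exact permutation p = 0.4). The log2 ratio of PSMB9 to PSMB6 was -5.80 ± 0.98 in shERG-DMSO and -3.65 ± 0.24 in shERG-Dox, and it was -5.18 ± 0.38 in DMSO, -4.16 ± 0.32 after 4 h, -3.23 ± 0.39 after 8 h, and -2.80 ± 0.44 after 12 h. Each treated group lay above its vehicle group. PSMB10 to PSMB7 differed by -1.45 between 12 h and DMSO, without overlap, and by -0.18 between shERG-Dox and shERG-DMSO (exact permutation p = 0.4). With 3 samples against 3 the exact test cannot go below 0.1, and all 12 ratio tests stayed at an adjusted p of 0.2 or more.

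The response to PBITE-1 after 12 h and the response to Dox, which share no samples, were compared by an interaction term over all 18 samples. Of the 38 members lower with Dox and the 35 lower after 12 h, 34 were in both lists (89.5% and 97.1% of them). Of all genes, 22.4% were lower in both, which was 63.3% of those lower with Dox and 56.7% of those lower after 12 h. With 38 and 35 of 43 members lower, most of this overlap is fixed by the counts themselves. PSMD9 was higher in both, PSMB8 was higher with Dox and lower after 12 h, and PSMD10 was lower with Dox and higher after 12 h, under TMM. The difference between the responses was called for 24 members, more negative after 12 h for 16 and more positive for 8 (35.1% and 33.3% of all genes). The difference passed a log2 value of 1 for PSMB8 alone (15.9% of all genes lower and 13% higher). Under library size alone these counts were 31 and 3 (47.1% and 23.2% of all genes), and under upper quartiles 24 and 4 (40.7% and 28.1%).

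PSMB8 differed most between the experiments, by -1.73 ± 0.28 (SE, adjusted p = 6.4e-07) in log2, followed by PSMD5 (-0.73 ± 0.098). PSMB5 (-0.50 ± 0.094), PSMD13 (-0.50 ± 0.080), PSMC1 (-0.46 ± 0.069), PSMC3 (-0.45 ± 0.091), and PSMB2 (-0.44 ± 0.075) were also more negative after 12 h of PBITE-1. More positive after 12 h were PSMD10 (0.60 ± 0.12 SE, adjusted p = 1.9e-05), PSMD14 (0.46 ± 0.071), PSMA3 (0.44 ± 0.075), and PSMA5 (0.42 ± 0.090). The 4 chaperones PSMG1 to PSMG4 had no called difference, with values between -0.35 and 0.09 and SEs between 0.10 and 0.27. For PSMA6, PSMA7, and PSMB4 the estimate was within 0.01 of 0 under TMM. Members called lower under library size alone included PSMA7 and PSMB4. Line and treatment cannot be told apart in this comparison, since each treatment was given to another line.

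**Figure D4:**
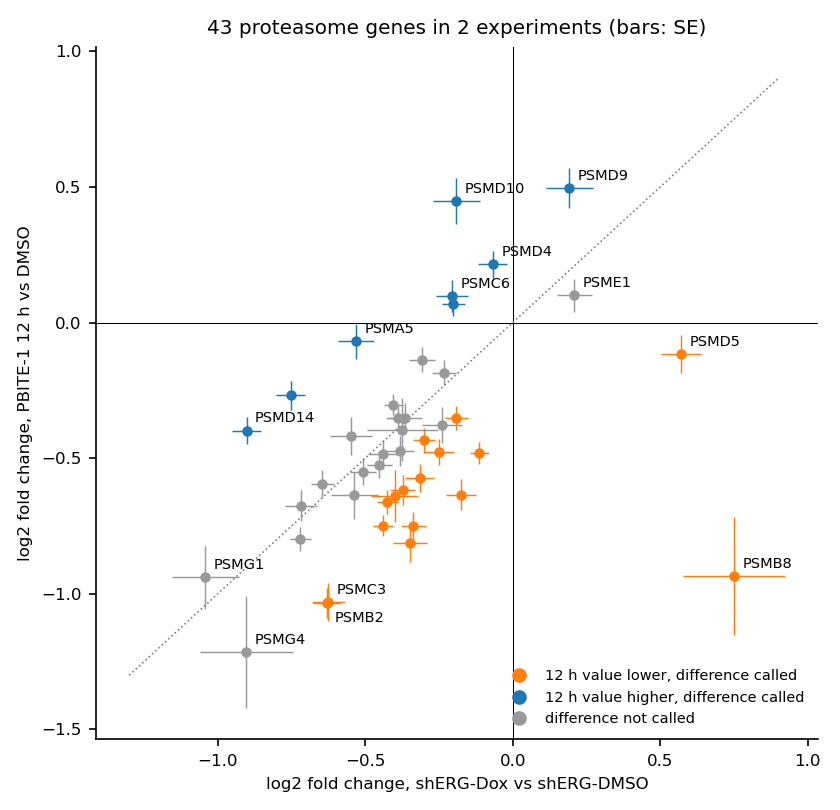
Log2 fold change of the 43 members with Dox (x axis) and after 12 h of PBITE-1 (y axis), with SE bars and coloured by the sign of a called difference (orange 16, blue 8, grey not called). Most points lie in the lower left quadrant, PSMB8 and PSMD5 lie at lower right, PSMC6, PSMD10, PSMD4, and PSME4 at upper left, and PSMD9 and PSME1 at upper right, under TMM scaling. The dotted line marks equal values.

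Between the vehicle groups of the 2 lines, 32 members had no called difference. In the fit of all 18 samples, 4 members were lower and 7 higher in shERG-DMSO than in DMSO (23.3% and 23.3% of all genes), with a median of 0.02, and none past 2-fold (5% and 1.19%). Among the catalytic subunits, PSMB5 (0.21 ± 0.060 SE, adjusted p = 0.003) and PSMB7 (0.13 ± 0.044 SE, adjusted p = 0.011) were higher in the shERG line, the latter not without shERG-DMSO replicate 1 or DMSO replicate 2, and PSMB8 differed by -0.17 ± 0.18 without passing the test. The base chaperones PSMD5 (-0.43 ± 0.071) and PSMD9 (-0.25 ± 0.079) were lower in the shERG line and PSMD10 (0.30 ± 0.084) higher, chosen here after their values were seen.

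Proteasome genes with other symbols were read as a list of 11. All 11 fell with Dox (background 35.3%), with a median of -0.36, and 7 fell and 2 rose after 12 h of PBITE-1 (39.4% and 39.4% of all genes). POMP, the maturation factor of the core, changed by -0.76 ± 0.061 with Dox and -0.38 ± 0.060 after 12 h, the ubiquitin receptor ADRM1 by -0.69 ± 0.061 and -0.30 ± 0.056, and the lid subunit SEM1 by -0.36 ± 0.060 and -0.33 ± 0.063. The deubiquitinases UCHL5 and USP14 fell by 0.69 and 0.22 on the log2 scale after 12 h, and the base chaperone PAAF1 by 0.35. ZFAND5, which activates the 26S particle, was at -0.36 ± 0.036 with Dox and 0.70 ± 0.048 after 12 h, so that it went opposite ways (difference 1.02 ± 0.067 SE, adjusted p = 6.5e-18). The other gene that rose after 12 h was AKIRIN2 (0.84 ± 0.077), which carries proteasomes into the nucleus. With Dox, USP14 and PAAF1 turned in sign and SEM1 lost its call under library size alone (adjusted p = 0.156 in limma). The Dox call of PAAF1 was also lost under upper quartiles and other count filters and without shERG-DMSO replicate 1 (-0.11 against -0.21) or any one of the shERG-Dox samples.

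The NFE2L1 pathway, the regulators of subunit transcription and their processing enzymes, was mostly higher after 12 h, when most subunits were lower. Of its 9 genes, 8 rose and 1 fell (median 1.16; 39.4% of all genes rose and 39.4% fell), against 5 rising and 1 falling after 4 h (26.4% and 24.7% of all genes), and 7 and 1 after 8 h (35.9% and 37%). NFE2L1 itself was at 220.0, 231, and 213 CPM in DMSO, 289, 302, and 291 after 8 h, and 465, 515, and 497 after 12 h, above DMSO without overlap (1.16 ± 0.039 SE, adjusted p = 5.0e-26). NGLY1, which removes its glycans, rose by 0.73 after 12 h, while DDI2, the protease that cleaves it, fell by 0.48. NFE2L2, its relative, rose by 1.76 ± 0.060 and the ER ligase pair SYVN1 and SEL1L by 1.19 and 1.40. Of the exon bases of NFE2L2, 17.6% lie in exons of another gene on the same strand. With Dox, 5 of the 9 fell and 2 rose (35.3% and 35.1% of all genes), NFE2L1 among the latter by 0.31 ± 0.037, and DDI2 and NGLY1 (-0.21 and -0.22) turned in sign under library size alone. These are mRNA levels, and the processed NFE2L1 protein was not measured.

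Of 12 ubiquitin and shuttle genes, 5 fell and 5 rose after 12 h, and 5 fell and 4 rose with Dox, near the shares of all genes (39.4% and 39.4% after 12 h, 35.3% and 35.1% with Dox). SQSTM1, a ubiquitin-binding autophagy receptor, rose in both (0.85 ± 0.050 with Dox and 1.29 ± 0.050 after 12 h). RPS27A, a ubiquitin gene fused to a ribosomal protein, was at -0.74 ± 0.032 with Dox and -0.05 ± 0.042 after 12 h. Of 12 antigen processing genes, 9 rose and 3 fell after 12 h (median 1.02), and 8 rose and 1 fell with Dox, against the same shares of all genes. The peptide transporter genes TAP1 and TAP2 went opposite ways after 12 h (0.99 ± 0.11 and -0.98 ± 0.11) as with Dox (0.64 ± 0.13 and -0.54 ± 0.086). TAP2 shares 32.3% of its exon bases with another gene on the same strand, so its counts are uncertain. Of the regulators of inducible subunits, IRF1 was at 3.01 ± 0.13 after 4 h, 2.46 ± 0.13 after 12 h, and 0.09 ± 0.18 with Dox, and NLRC5 at 1.78 ± 0.50 after 12 h and 3.05 ± 0.52 with Dox. The call of NLRC5 for 12 h against 4 h was lost without PBITE-1 4 h replicate 1.

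**Figure D5:**
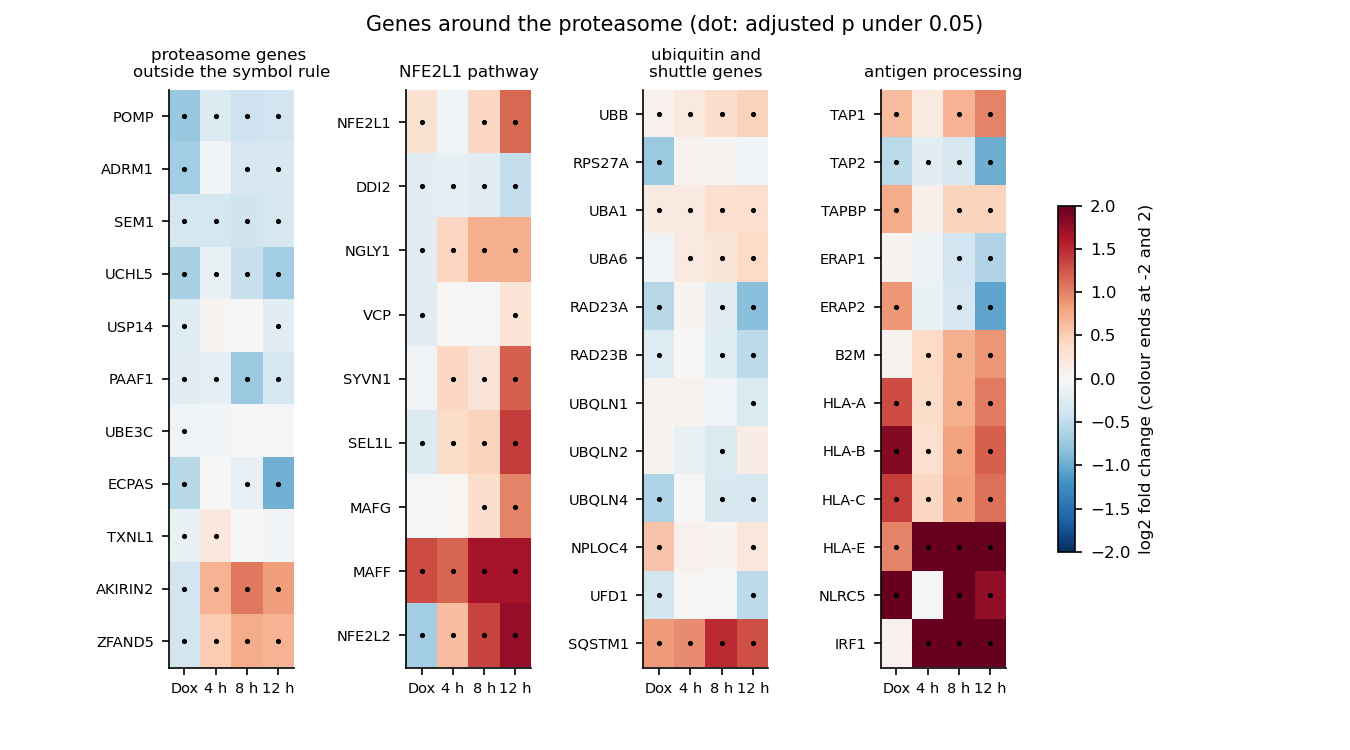
Log2 fold change of the genes of 4 lists around the proteasome (rows) with Dox and at 4, 8, and 12 h of PBITE-1 (columns), blue for lower and red for higher than vehicle, with a dot where the adjusted p was under 0.05 (colour ends at -2 and 2). The first list is mostly blue with Dox, and the NFE2L1 pathway turns red towards 12 h in 8 of 9 genes.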

How the data were processed

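The authors deposited whole-number raw counts per gene for 18 samples (22034 genes, of which 22011 were given a symbol). The labels' processing notes name STAR, featureCounts, and hg38, whereas the study's methods name Kallisto for the PBITE-1 samples, and whether strand was used is not given in the sources used here. Total counts lay between 11308600 and 17483423 per sample. Genes passing filterByExpr over the 6 groups (14164, 64.3%) were scaled by TMM (edgeR 4.0.16) and fitted with voom and limma 3.58.1 in R 4.3.3, separately for the 6 shERG and the 12 parental samples, and over all 18 samples for the interaction and the comparison of lines. Benjamini-Hochberg adjustment ran over all 14164 genes, those under 0.05 were called, and every adjusted p printed is from limma. The standard errors are those of limma. Ratios of catalytic subunits were tested by exact two-sided permutation. The fits were checked on simulated data in which few genes changed, equally in both directions, so that check cannot test the assumption behind TMM. The alternatives tried were edgeR's quasi-likelihood test, DESeq2 1.42.0, other scalings, filters, and left-out samples. Members are grouped by place in the particle. Members and gene lists were chosen with earlier results of these data known. Some genes of the ubiquitin and antigen processing lists are not reported here. Replicates differed by more than counting noise (chi-square per degree of freedom 1.71 to 5.17), and nothing in the labels says that the shERG samples came from separate cultures, so p-values there measure the spread between these samples. Genes sharing exon bases with others are uncertain where reads could be split. Promoters came from RefSeq (GRCh38.p14).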

Additional observations from a re-analysis of the deposited data

Results flagged for a closer look

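The log2 fold change differed between PBITE-1 after 12 h and Dox for 24 of the 43 proteasome genes by the interaction term in limma (adjusted p under 0.05). That value was more negative with PBITE-1 for 16 members (37.2%) and more positive for 8 (18.6%), against 35.1% and 33.3% of all genes tested. It was more negative with PBITE-1 in PSMA4 (-0.41), PSMB2 (-0.44), PSMB5 (-0.50), PSMB6 (-0.28), PSMB8 (-1.73), PSMC1 (-0.46), PSMC2 (-0.20), PSMC3 (-0.45), PSMD1 (-0.28), PSMD11 (-0.35), PSMD12 (-0.29), PSMD13 (-0.50), PSMD3 (-0.18), PSMD5 (-0.73), PSMD7 (-0.30), and PSMD8 (-0.27). It was more positive in PSMA3 (0.44), PSMA5 (0.42), PSMC6 (0.26), PSMD10 (0.60), PSMD14 (0.46), PSMD4 (0.24), PSMD9 (0.26), and PSME4 (0.23). Among the genes outside the members recomputed under every setting, the differences called were POMP (0.34), ADRM1 (0.35), ZFAND5 (1.02), NFE2L1 (0.80), DDI2 (-0.31), NGLY1 (0.91), SQSTM1 (0.39), TAP2 (-0.48), IRF1 (2.33), and ERG (-0.17). Over the whole lists, the calls were 1 more negative and 4 more positive of 11 proteasome genes with other symbols, 1 and 7 of 9 in the NFE2L1 pathway, 5 and 6 of 12 ubiquitin and shuttle genes, and 6 and 3 of 12 antigen processing genes. The shares of all genes tested were again 35.1% more negative and 33.3% more positive. Line and treatment cannot be told apart in these values. Under library size alone the signs of PSME4 and PSMD4 turned (-0.029 and -0.020), and PSMC6, PSMD9, PSMA5, POMP (0.081), ADRM1 (0.087), and SQSTM1 (0.13) fell short of the test. Under upper quartiles PSMC6, PSMD4, PSMD9, and PSME4 were not called. PSMD9 was not called without shERG-DMSO replicate 1, shERG-Dox replicate 1 or 3, DMSO replicate 3, or PBITE-1 12 h replicate 2. With samples weighted by quality it also fell short (adjusted p = 0.0632 in limma). Without PBITE-1 12 h replicate 2, ERG was at -0.11 and was not called (adjusted p = 0.117 in limma). PSMB6 (adjusted p = 0.0497 in limma) lost its call with DESeq2, RLE scaling, no low-count filter, or only the groups compared. PSMB6 was not called without shERG-DMSO replicate 2 or 3, shERG-Dox replicate 1 or 3, DMSO replicate 1 or 2, or any 12 h sample.

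Between times of PBITE-1, 35 members were lower and 2 higher after 12 h than after 4 h (35% and 35% of all genes), a difference tested directly between the treated samples.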

How the results depend on the processing

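Under library size alone, Dox called 21 members lower with a median of -0.113, 4 h called 21 lower and 3 higher (-0.119), 8 h called 3 higher (-0.323), the 12 h median was -0.517, that of 8 h against 4 h -0.154, and the interaction called 31 lower and 3 higher (-0.38). The Dox values of PSMA4 (0.15), PSME4 (0.059), PSMD8 (0.012), PSMC6 (0.055), PSME2 (0.022), PSMD10 (0.070), PSMD4 (0.19), PSMB4 (0.028), PSMC2 (0.070), PSMD13 (0.087), DDI2 (0.050), NGLY1 (0.041), USP14 (0.019), and PAAF1 (0.051) reversed there, as did the interaction values of PSME4 (-0.029), PSMA7 (-0.25), PSMD4 (-0.020), PSMB4 (-0.25), and PSMD2 (-0.20). The cause was not tested. Under upper quartiles the Dox median was -0.213 and PSMA4 reversed (0.048), 4 h called 16 lower and 3 higher (-0.0957), the 8 h median was -0.284, the interaction called 4 higher (-0.246), and the median of shERG-DMSO against DMSO was 0.0148. With at least 10 counts in every sample, the medians were -0.326 for Dox, -0.0595 for 4 h, -0.235 for 8 h, -0.126 for 8 h against 4 h, and 0.00592 between the lines. In a single fit of all 18 samples, 4 h called 3 higher (-0.092) and the medians after 8 and 12 h were -0.284 and -0.516. DESeq2 gave medians of -0.148 for 8 h against 4 h and 0.0485 between the lines, and RLE scaling 0.0511 between the lines. At an adjusted p under 0.01, 4 h called 6 lower and 3 higher, 8 h 3 higher, and the lines 4 higher. With a log2 change past 1 required as well, 1 member was lower with Dox, 3 after 12 h, and 1 in the interaction, and 0 in every other comparison and direction. Without the minimum of 10 counts for members, 1 gene was higher after 8 h than after 4 h. Per kb of all exons the median member in DMSO was at 24.78 CPM.

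When 1 sample was left out at a time, there were 36 to 38 members lower and 3 to 4 higher with Dox (median -0.399 to -0.354), 8 to 11 and 3 to 5 after 4 h (-0.0898 to -0.0598), 27 to 29 and 3 to 5 after 8 h (-0.256 to -0.248), 35 to 36 and 3 to 4 after 12 h (-0.511 to -0.447), 18 to 22 lower for 8 h against 4 h (-0.165 to -0.12), 24 to 27 and 4 to 5 for 12 h against 8 h, 32 to 35 and 2 for 12 h against 4 h, 15 to 17 and 7 to 9 in the interaction, and 4 to 5 and 5 to 7 between the lines (0.0105 to 0.0371). Members that lost a call in this way numbered 3 with Dox, 7 after 4 h, 5 after 8 h, and 2 in the interaction (PSMB6 and PSMD9). With the replicate block the counts were 38 and 4 with Dox, 10 and 6, 30 and 5, and 35 and 3 after 4, 8, and 12 h, and 15 and 8 in the interaction, where PSMB6 lost its call. Samples with the same number did not deviate together (r from -0.027 to 0.047 over 7 pairs of groups), so the numbers were not taken as pairs. Alternatives for 8 h against 4 h, 12 h against 8 h, and the lines, and the ratios with a sample left out, were chosen after seeing the data. Of 6708 member values recomputed, 6410 stayed on their side of the threshold (147 of them changed sign with no call either way), 177 lost a call, 105 gained one, and 16 reversed. Low counts limit PSMB8, PSMB9, PSMB10, and PSMG4.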
